A study of Mus musculus with 18 samples.

Results

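Total RNA from the brains of CPEB4 KO mice was compared, gene by gene, with total RNA from CPEB4 GT/+ mice. The comparison rests on 4 arrays of the 18 in the series, 2 animals per genotype, chosen by their labels as unfractionated RNA (called INPUT in the study). The CPEB4 GT/+ mice carry 1 GT allele and the CPEB4 KO mice lack CPEB4, as far as the names say. The series text also writes the former as CPEB4 KOGT/+, and the labels used here do not say how either allele was made. All mice were 6 weeks old, and cortex and striatum were taken as 1 piece of tissue. The 2 WT animals of the same age and tissue gave 2 further INPUT arrays, which help to estimate the spread and show where both other genotypes lie relative to WT. From the same 6 animals the study also hybridised RNA released from poly(U) agarose in a short-tail fraction (WASH) and a long-tail fraction (ELUTED).

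CPEB4 belongs to the family of cytoplasmic polyadenylation element binding proteins, which bind the 3' ends of messenger RNAs and set the length of their poly(A) tails and thereby their translation. In neurons CPEB4 is known for its part in the response to activity and in the expression of genes linked to autism, and in liver it is known for its part in the response to stress of the endoplasmic reticulum (ER). Its direct effect is on tails and translation, so total RNA reports what transcript abundance looks like beside it.

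Levels are log2 values, so a difference of 1 is a doubling, and each gene is represented by 1 set of probes. The 12822 genes above the intensity filter were tested, and a gene was called when its p-value from limma, adjusted over all of them by the Benjamini-Hochberg procedure, was under 0.05. The INPUT arrays had medians between 6.39 and 6.42. Markers of the labelled tissue were well above the filter of 5.52 on every INPUT array, with mean levels of 8.83 to 8.97 for 26 genes of cortical excitatory neurons and 8.89 to 9.09 for 24 genes of striatal projection neurons. In a bulk sample, fewer cells of a type and less RNA per cell cannot be told apart. Xist was between 10.65 and 10.90 on all 6 INPUT arrays and the 6 Y-linked genes measured were below the filter on average, so no animal differed from the others in this respect.

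One of the 4 arrays stood apart. The INPUT array of CPEB4 KO replicate 1 correlated with the other INPUT arrays at 0.977 to 0.979 across genes, against 0.989 to 0.994 among the other 5. It carried transcripts of hepatocytes, the main cells of the liver. Alb, which encodes serum albumin, read 12.08 on this array and 6.14 on CPEB4 KO replicate 2, with 6.35 and 6.28 in CPEB4 GT/+ and 6.23 and 6.26 in WT. Apoa2, an apolipoprotein of high-density lipoprotein, read 12.09 against 6.74 to 7.02 on the other INPUT arrays. Only the array of CPEB4 KO replicate 1 was high for these genes, and the other 5 lay close together.

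Of 51 textbook hepatocyte genes, a list drawn up after these values had been seen, 48 were measured. All 48 were highest on the INPUT array of CPEB4 KO replicate 1, 44 of them by at least 1 over every other INPUT array and 37 by at least 2. Their mean level was 9.08 there and 5.28 to 5.37 on the other 5 INPUT arrays. The WASH and ELUTED arrays of the same animal did not show this: the mean level was 5.28 in WASH, within the 5.19 to 5.32 of the other animals, and 5.39 in ELUTED, within 5.28 to 5.45. Over all 17097 genes, 213 were at least 1 higher on this array than on any other INPUT array, against 1 for WT replicate 1 and 0 for each of the other 4. Of the list, 0 genes are kept members of any other gene list described below, but those lists hold further genes made in liver, such as Trf, Agt and Vtn. Dsp, in the list of other brain regions, read 9.20 on CPEB4 KO replicate 1 and 5.27 on replicate 2. Since this array is 1 of the 2 of the CPEB4 KO group, the levels of named genes and the medians of gene lists are given for both CPEB4 KO animals.

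**Figure D1:**
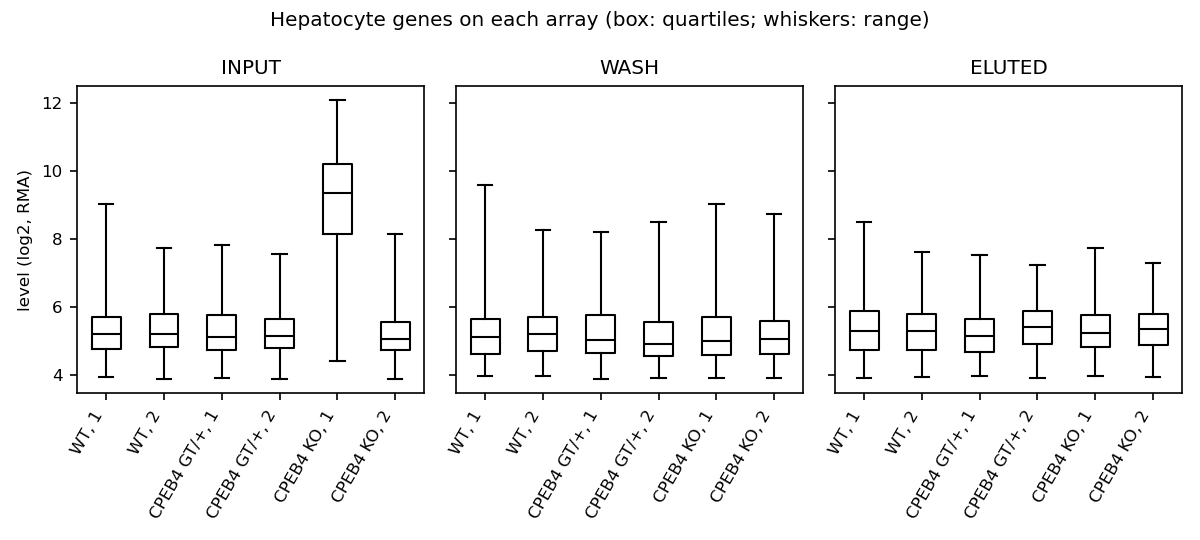
Levels (log2, RMA) of the 48 measured hepatocyte genes on each of the 18 arrays, by fraction; boxes span the quartiles with the median as a line, and whiskers span the range. The INPUT array of CPEB4 KO replicate 1 is the only box that stands apart, with a mean of 9.08 against 5.28 to 5.37 on the other INPUT arrays.

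Cpeb4 itself served as the check of the labels. Its brightest probe set read 8.15 and 7.62 in WT, 7.31 and 7.002 in CPEB4 GT/+ and 6.62 and 6.91 in CPEB4 KO. The 3 genotypes did not overlap and lay in the order WT, CPEB4 GT/+, CPEB4 KO. CPEB4 KO was lower than CPEB4 GT/+ by a log2 difference of -0.39 ± 0.19 (SE, n = 2 and 2; limma, unadjusted p = 0.0808, adjusted p = 0.655), which was not past the threshold. The difference from WT was -1.12 for CPEB4 KO and -0.73 for CPEB4 GT/+. A second probe set gave the same order, at 8.30 and 8.33 in WT, 7.38 and 7.13 in CPEB4 GT/+ and 6.55 and 6.92 in CPEB4 KO, and so did the dimmest one at 5.94 and 6.01, 5.52 and 5.50, and 4.88 and 5.15. The order follows the labels, but Cpeb4 probes still gave signal in CPEB4 KO. Where the probes lie relative to the change in the KO allele was not tested. For the brightest probe set CPEB4 KO minus CPEB4 GT/+ was -0.70 in WASH and -1.10 in ELUTED. Its CPEB4 GT/+ animals lay apart in ELUTED, at 7.44 and 6.50 against 5.94 and 5.79 in CPEB4 KO. The other probe sets did not widen in this way. The second read 7.13 and 6.73 in CPEB4 GT/+ and 6.46 and 6.33 in CPEB4 KO in WASH, and in ELUTED 6.67 and 6.26 against 6.10 and 6.36, where the groups overlapped. The dimmest read 5.30 and 4.96 against 4.82 and 4.92 in ELUTED.

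On their brightest probe sets the 3 relatives of Cpeb4 did not separate the groups. Cpeb2 read 8.93 and 9.13 in CPEB4 GT/+ and 9.05 and 9.30 in CPEB4 KO, a difference of 0.14 ± 0.12 (SE). Cpeb3, at 8.85 and 8.84 against 8.82 and 8.92, and Cpeb1, at 7.45 and 7.64 against 7.49 and 7.64, differed by 0.025 and 0.017. The animals of both groups overlapped for all 3 genes, and for Cpeb1 and Cpeb3 the sign depended on the array scaling and on which animals were used. The further probe sets of Cpeb3 did separate the groups, at 0.13 and, for a dim one, 0.36, and in WASH the brightest one differed by 0.31.

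Across all genes, limma called 0 of 12822 genes (0%) between CPEB4 KO and CPEB4 GT/+ in total RNA. At an unadjusted p under 0.05 there were 765 genes higher in CPEB4 KO (5.97%) and 278 lower (2.17%). Without CPEB4 KO replicate 1 the call count was 0, with 894 genes higher and 316 lower at an unadjusted p under 0.05. Without CPEB4 KO replicate 2, so with the array that carries hepatocyte transcripts as the only CPEB4 KO sample, 272 genes were called, 259 of them higher. The unadjusted count of 1043 fell to 619 without CPEB4 GT/+ replicate 2. The same fit called 0 genes for CPEB4 KO against WT, where 934 were higher (7.28%) and 470 lower (3.67%) at an unadjusted p under 0.05, and 0 for CPEB4 GT/+ against WT, where 222 were higher (1.73%) and 216 lower (1.68%). These comparisons share the CPEB4 KO or CPEB4 GT/+ animals with the main one.

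The lean towards higher genes depended on how the arrays were scaled. Of the genes at an unadjusted p under 0.05, 73.3% were higher in CPEB4 KO with the deposited scaling, 58.6% after a second quantile normalization and 98.9% when the arrays were aligned on the hybridisation controls. That alignment moved the median difference of all genes from 0.02 to 0.18 and gave 78 calls, 75 of them higher, so each difference given here is one against the bulk of genes on an array. With 2 animals on each side, the smallest p that an exact permutation test could give is 0.333.

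Large differences came mostly from 1 animal. Of 183 genes with a mean difference of at least 0.58 (about 1.5-fold), CPEB4 KO replicate 2 alone was at least 0.58 above the CPEB4 GT/+ mean for 34 and less than 0.20 above it for 85. On the lower side both animals moved: of 12 genes with a difference of -0.58 or beyond, CPEB4 KO replicate 2 alone was that low for 9. The 2 CPEB4 KO animals were at least 1 apart for 136 genes, against 2 genes for the CPEB4 GT/+ pair and 13 for the WT pair.

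**Figure D2:**
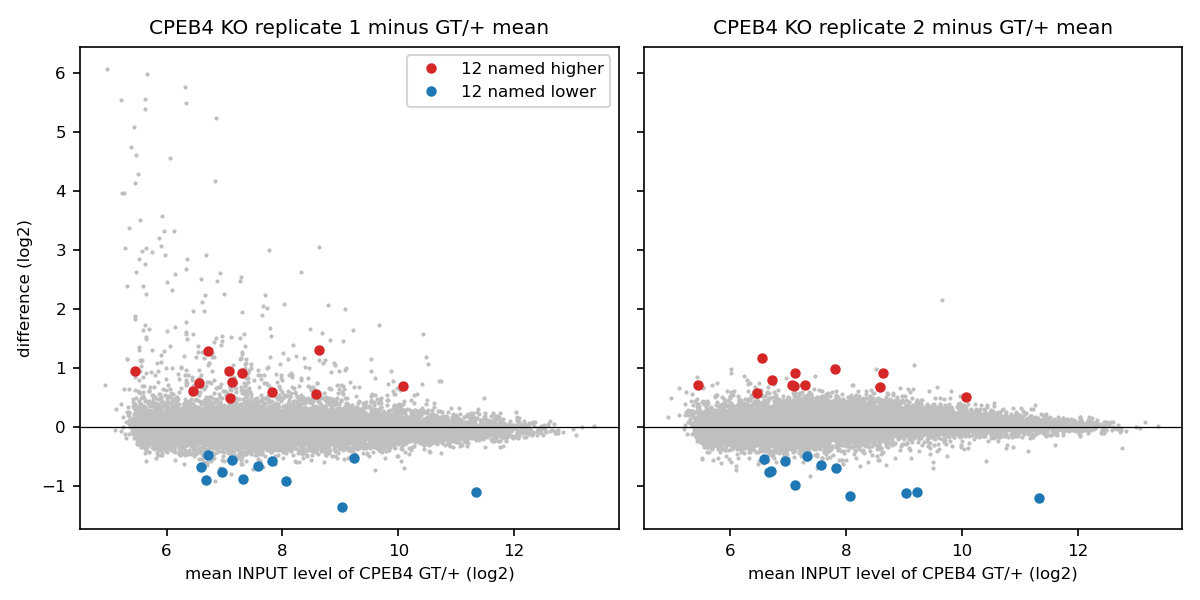
Difference from the CPEB4 GT/+ mean (log2) against the CPEB4 GT/+ mean level (log2) for the 12822 genes tested in INPUT, with CPEB4 KO replicate 1 on the left and replicate 2 on the right; coloured points are the 12 higher and 12 lower genes named by rule. The left panel holds a spray of points far above 0 that the right panel lacks. The named genes lie on the same side in both, as the rule requires.

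The genes described next are those with the smallest unadjusted p among genes whose animals did not overlap and whose difference was at least 0.58 in size, up to 12 in each direction. Such genes numbered 122 on the higher side (0.951% of those tested) and 12 on the lower side (0.0936%), so the lower set is complete. None was past the adjusted threshold, and the values below describe these 4 animals.

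Pisd-ps3, a transcribed pseudogene related to the gene for phosphatidylserine decarboxylase, had the smallest p. Its level was 11.30 and 11.36 in CPEB4 GT/+ against 10.23 and 10.13 in CPEB4 KO, and 11.53 and 11.26 in WT. The CPEB4 KO animals stood together, about 2.22-fold below CPEB4 GT/+, and CPEB4 GT/+ lay with WT. The difference was -1.15 ± 0.12 (SE; limma, unadjusted p = 1.2e-05, adjusted p = 0.113), and 2 other probe sets gave -1.10 and -1.58. Probes for such a copy can also bind transcripts of related genes, so the source of this signal is uncertain.

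Apold1, an early response gene of endothelial cells, was the most strongly lower gene. Its level was 9.05 and 9.02 in CPEB4 GT/+ against 7.69 and 7.93 in CPEB4 KO, with 9.35 and 9.07 in WT. Neither CPEB4 KO animal came near the other 4, and the group was 2.34-fold below CPEB4 GT/+ (difference -1.23 ± 0.13, SE; limma, adjusted p = 0.113). Slc39a2, a zinc transporter, read 7.99 and 8.14 in CPEB4 GT/+ and 7.16 and 6.91 in CPEB4 KO, again with WT near CPEB4 GT/+ at 8.17 and 8.10 (difference -1.03 ± 0.12, SE; limma, adjusted p = 0.120). With CPEB4 KO replicate 2 as the only CPEB4 KO sample these 3 genes differed from CPEB4 GT/+ by -1.20, -1.10 and -1.15.

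The other 9 lower genes differed by -0.60 to -0.82, with limma's adjusted p between 0.342 and 0.487. 4930447C04Rik read 6.63 and 6.73 in CPEB4 GT/+ and 5.79 and 5.93 in CPEB4 KO. Ccl21b, a chemokine with near-identical copies in the mouse genome, read 9.38 and 9.08 against 8.71 and 8.13, and Gm2824 read 7.23 and 7.04 against 6.57 and 6.15. For these 3 genes WT lay nearer to CPEB4 GT/+ than to CPEB4 KO, at -0.71, -0.91 and -0.66 for CPEB4 KO minus WT. Ccn1, a secreted matrix protein that is induced early by growth factors, read 7.78 and 7.38 against 6.92 and 6.94, and its second probe set gave -0.71. Adam1a, a membrane protein of the ADAM family, read 6.91 and 6.99 against 6.19 and 6.37, but its second, dimmer probe set gave -0.08.

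For the remaining 4 lower genes the place of WT differed. Mid1, a ubiquitin ligase of microtubules, was 0.28 higher in CPEB4 GT/+ than in WT and -0.34 in CPEB4 KO minus WT. Atad2, an ATPase that binds acetylated histones, showed 0.41 and -0.26, C130050O18Rik 0.27 and -0.33, and Fam76b 0.53 and -0.07. In these genes WT lay between the other genotypes or, for Fam76b, beside CPEB4 KO. The further probe sets of Fam76b (0.02 and -0.10) and Atad2 (-0.16 and -0.09) were dimmer and gave smaller differences.

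On the higher side, Nnt, the mitochondrial enzyme that makes NADPH from NADH, had the largest difference of the 12. Its level was 8.56 and 8.71 in CPEB4 GT/+ against 9.95 and 9.55 in CPEB4 KO, with 8.59 and 8.40 in WT. Both CPEB4 KO animals were above the other 4, by 2.17-fold over CPEB4 GT/+ (difference 1.12 ± 0.15, SE; limma, adjusted p = 0.175), and the second probe set gave 0.94. H2-Ab1, a chain of the class II antigen-presenting molecule, read 6.66 and 6.77 against 8.00 and 7.51 (1.04 ± 0.16, SE; limma, adjusted p = 0.273), while its 2 dimmer probe sets gave -0.01 and -0.10. Cdhr1, a cadherin of photoreceptors and of the olfactory bulb, read 6.64 and 6.48 against 7.31 and 7.74 (0.97 ± 0.16, SE; limma, adjusted p = 0.342), the only gene of these 3 that was higher in CPEB4 KO replicate 2 than in replicate 1.

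Prelp, a proteoglycan of connective tissue, had the smallest p of the higher genes. It read 7.29 and 7.30 in CPEB4 GT/+ and 8.21 and 8.02 in CPEB4 KO, with WT between them at 7.61 and 7.52 (difference 0.82 ± 0.10, SE; limma, unadjusted p = 6.05e-05, adjusted p = 0.175). Esr1, the estrogen receptor alpha, read 5.52 and 5.38 in CPEB4 GT/+, 6.40 and 6.17 in CPEB4 KO and 6.21 and 6.10 in WT. Here CPEB4 KO lay beside WT and the CPEB4 GT/+ animals were the low ones, at -0.71 relative to WT. The CPEB4 GT/+ mean was below the WT mean for 9 of the 12 higher genes and above it for 6 of the 12 lower genes. Since the genes were chosen on the CPEB4 GT/+ animals, nothing is read from these counts.

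The remaining 7 higher genes differed by 0.59 to 0.84. Pnp, purine nucleoside phosphorylase, read 7.23 and 7.02 against 7.89 and 8.05. Gstm7, a glutathione transferase, read 7.02 and 7.12 against 8.03 and 7.79, although its dimmer probe set gave -0.17. Acta2, smooth muscle actin, read 7.69 and 7.93 against 8.41 and 8.80, and its dimmer probe set gave 0.10 with overlap. Both CPEB4 KO animals were above both CPEB4 GT/+ animals for each gene, as the rule asks. Cox18, which inserts a subunit of cytochrome c oxidase, differed by 0.62 (0.56 and 0.69 in the single CPEB4 KO animals). Cerk, the ceramide kinase, differed by 0.60 (0.50 and 0.71), and Ormdl2, a regulator of sphingolipid synthesis, by 0.59 (0.61 and 0.58). Litaf, an endosomal membrane protein, differed by 0.60 (0.70 and 0.51), while its further probe sets gave 0.24 and 0.06. Without CPEB4 KO replicate 1 the differences of these 12 genes were between 0.51 for Litaf and 1.18 for Cdhr1, and limma called 0 of them.

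**Figure D3:**
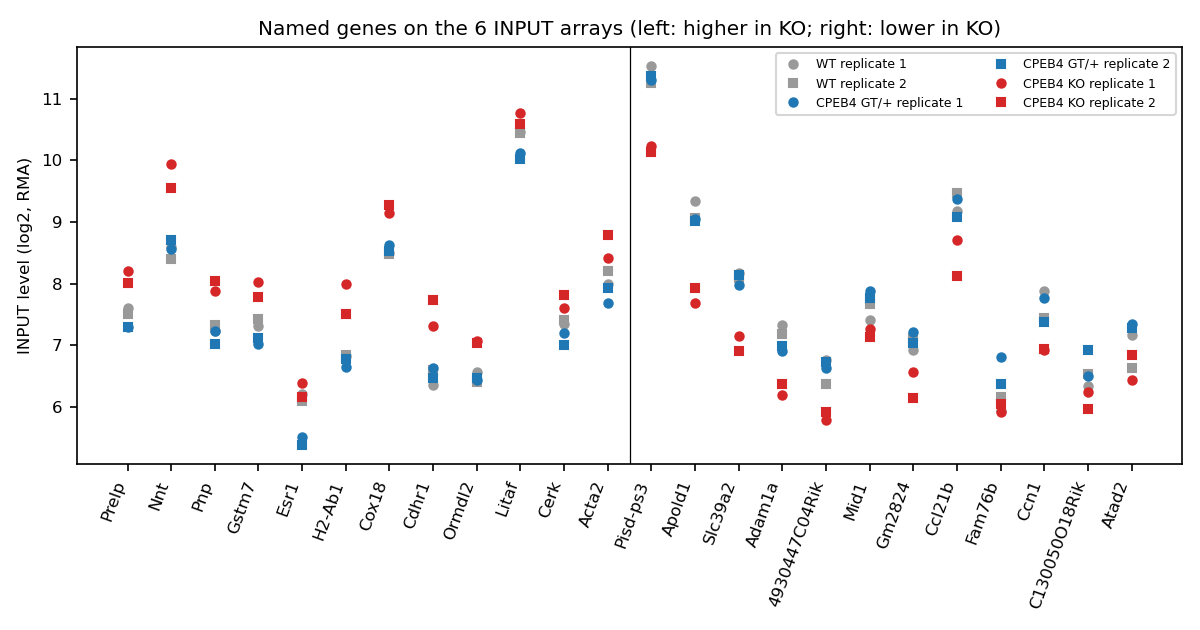
INPUT level (log2, RMA) of the 12 genes higher in CPEB4 KO (left of the line) and the 12 lower genes (right of the line) on each of the 6 INPUT arrays; circles are replicate 1 and squares replicate 2. The red points of CPEB4 KO lie apart from the blue points of CPEB4 GT/+ for every gene, as the rule requires, and the grey WT points lie beside CPEB4 GT/+ for genes such as Pisd-ps3 and Nnt but beside CPEB4 KO for Esr1.

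The WASH and ELUTED arrays of the same animals were not used to choose these genes. In WASH all 12 higher and all 12 lower genes kept the sign they had in INPUT, and in ELUTED 8 of 12 and 11 of 12 did. The animals did not overlap, in the same direction, for 19 of the 24 genes in WASH and 10 in ELUTED. Over all genes the animals did not overlap on the higher side for 17.8% in WASH and 11.4% in ELUTED, and on the lower side for 14% and 14.3%. In all 3 kinds of array 3 higher genes (Nnt, Cdhr1 and Cerk) and 7 lower genes separated the groups. The share of all genes that separated the groups in all 3 was not counted. Separation in INPUT was required by the choice of these genes, and the arrays come from the same animals. Nothing is therefore read from the counts of 3 and 7. The difference was smaller in WASH than in INPUT for 17 of the 24, which the choice of genes with large INPUT differences favours.

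In WASH 3 genes were called (0.0234% of those tested), all lower in CPEB4 KO and all among the 12 above. Pisd-ps3 differed there by -1.25 (limma, adjusted p = 0.0041), Apold1 by -1.24 (limma, adjusted p = 0.046) and Gm2824 by -1.03 (limma, adjusted p = 0.046). At an unadjusted p under 0.05, 354 genes were higher in WASH (2.76%) and 357 lower (2.78%). ELUTED gave 0 calls by limma, with 138 genes higher (1.08%) and 337 lower (2.63%) at an unadjusted p under 0.05, and Pisd-ps3 at -1.27 and Apold1 at -1.75. The size of the Pisd-ps3 difference was thus close in the 3 kinds of array, which do not differ in the animals but do differ in the RNA hybridised. Slc39a2 went from -1.03 in INPUT to -0.65 in WASH and -0.11 in ELUTED. Gstm7 and Ormdl2 were lower in ELUTED, at -0.29 and -0.24, with no overlap of the animals.

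Whether the genotype difference itself differed between INPUT and the other arrays was tested within animals, as the mean of WASH and ELUTED minus INPUT. Limma called 0 of 12822 genes, with 350 higher (2.73%) and 913 lower (7.12%) at an unadjusted p under 0.05. Without CPEB4 KO replicate 2, the INPUT array with hepatocyte transcripts being then the only one of its group, the count was 217. Among the named genes, Gstm7 had an estimate of -0.86, Pnp of -0.64 and Slc39a2 of 0.65 (limma, adjusted p = 0.302 for each). They were chosen for large INPUT differences, which are subtracted here, so estimates opposite in sign to those differences are favoured.

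**Figure D4:**
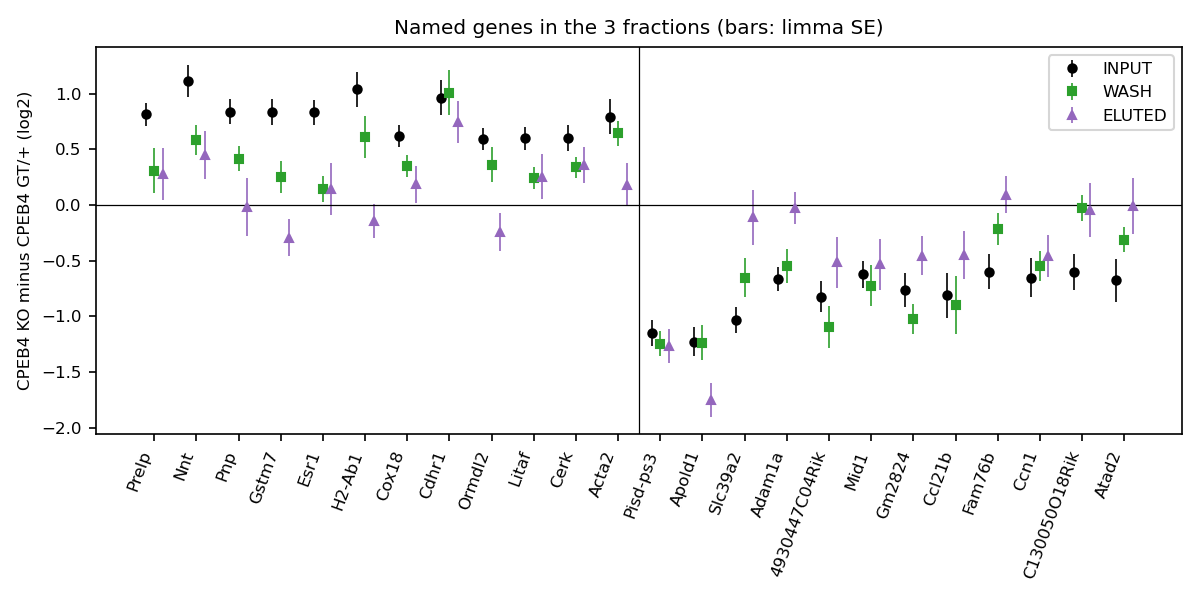
Difference between CPEB4 KO and CPEB4 GT/+ (log2) for the same 24 genes on the INPUT, WASH and ELUTED arrays of the same animals; bars are limma's standard errors. All 24 WASH points lie on the same side of 0 as the INPUT points, Pisd-ps3 and Apold1 are low in all 3, and Slc39a2 is near 0 in ELUTED.

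Nnt is known to carry a deletion in C57BL/6J mice, and the labels used here name no strain. A list of 24 candidates for variation between inbred strains, chosen with earlier results of these data known, had 17 members among the genes tested. Of these 4 were higher and 4 lower at an unadjusted p under 0.05, against 5.97% and 2.17% of all genes, and 8 were higher and 6 lower without overlap of the animals, against 22.8% and 15.2%. The list holds Nnt, Cox18, Pisd-ps3, Slc39a2 and Adam1a, so it is not independent of the genes above. The part of strain background in these differences was not tested. The 40 tested genes nearest to Cpeb4 in RefSeq gene order, 20 on each side, had differences between -0.28 and 0.23 with a median of -0.0053. Of them 1 was higher and 0 lower at an unadjusted p under 0.05. Genes between them that were not measured or fell below the filter were skipped.

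Gene lists of cell types and pathways were described by their counts and medians, beside the same over all genes, where 56.2% of differences were above 0 and the median was 0.02. No list held a called gene. The medians of the glial and vascular lists were 0.11 to 0.25, and those of the neuronal lists -0.04 to 0.08. In the single animals the median of all genes was -0.013 for CPEB4 KO replicate 1 and 0.052 for replicate 2, beside which the medians of lists in single animals are to be read. After a second quantile normalization the medians were 0.22 for oligodendrocytes, 0.12 for astrocytes, 0.17 for oligodendrocyte precursors, 0.07 for microglia, 0.06 for endothelial and mural cells, 0.18 for ependyma, choroid plexus and meninges and 0.10 for the unfolded protein response. With arrays aligned on the hybridisation controls they were 0.27 to 0.41, beside 0.18 for all genes.

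Oligodendrocytes make the myelin of the brain, and their 24 tested markers were all higher in CPEB4 KO than in CPEB4 GT/+, both on average and in either CPEB4 KO animal. The median difference was 0.25, or 0.18 in CPEB4 KO replicate 1 and 0.32 in replicate 2, and 21 of the 24 separated the groups upwards, against 22.8% of all genes. At an unadjusted p under 0.05, 11 were higher and 0 lower, against 5.97% and 2.17% of all genes. Fa2h, which makes the hydroxylated lipids of myelin, read 7.13 and 7.17 in CPEB4 GT/+, 7.61 and 7.61 in CPEB4 KO, and 7.63 and 7.68 in WT (difference 0.46 ± 0.09, SE; limma, adjusted p = 0.428). Its CPEB4 KO and WT values were close and CPEB4 GT/+ was the low group. Qdpr, an enzyme that recycles tetrahydrobiopterin, read 9.19 and 9.03 against 9.61 and 9.70, with 9.37 and 9.23 in WT.

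Some markers hardly differed between the groups and others rested on 1 animal. Mog, a myelin surface protein, read 8.93 and 8.83 in CPEB4 GT/+ and 8.99 and 9.05 in CPEB4 KO, with WT higher than both at 9.19 and 9.25. Trf, which encodes transferrin and is made in oligodendrocytes and in liver, read 10.45 and 10.41 in CPEB4 GT/+ against 12.01 and 10.81 in CPEB4 KO. Its difference of 0.98 was 1.58 in CPEB4 KO replicate 1 and 0.38 in replicate 2, and 0.34 in WASH. Relative to WT, 0 of the 24 oligodendrocyte genes were above 0 in CPEB4 GT/+ (median -0.18) and 15 in CPEB4 KO (median 0.05), against 51.8% and 57.2% of all genes. For these markers the lowest group was CPEB4 GT/+. In WASH 22 of 24 were above 0 with a median of 0.20, and in ELUTED 18 with a median of 0.10. A low CPEB4 GT/+ group was not particular to this list. CPEB4 GT/+ minus WT in INPUT was above 0 for 0 of 17 genes of ependyma, choroid plexus and meninges (median -0.16). For astrocytes it was 5 of 27 (median -0.06). For precursors it was 7 of 14, for microglia 11 of 20 and for endothelial and mural cells 11 of 26.

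Astrocyte markers were above 0 for 24 of 27 (median 0.17, with 0.16 and 0.12 in the single animals), 8 of them at an unadjusted p under 0.05 beside 5.97% of all genes. Ppp1r3c, a glycogen-targeting subunit of protein phosphatase, read 7.20 and 7.39 in CPEB4 GT/+ and 7.70 and 7.79 in CPEB4 KO. Aldh1l1, a folate enzyme of astrocytes and liver, read 8.13 and 7.87 against 9.26 and 8.35, and Agt, the angiotensin precursor made in both as well, read 6.92 and 6.998 against 8.43 and 7.35. For these last 2 genes most of the difference lay in CPEB4 KO replicate 1, and in WASH they differed by 0.07 and 0.34. Mlc1 and F3 were on the lower side in INPUT, where the lowest difference of the list was -0.15. Over the whole list the median in WASH was 0.09 with 24 of 27 above 0, and in ELUTED -0.03 with 11.

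Precursors of oligodendrocytes and microglia showed a like lean. Of 14 precursor genes 11 were above 0 (median 0.16, with 0.12 and 0.22 in the single animals), with Olig1, a lineage transcription factor, at 10.02 and 10.13 against 10.34 and 10.37, and C1ql1, a secreted protein of the complement-related family, at 6.86 and 6.95 against 7.20 and 7.13. Of 20 microglial genes 16 were above 0 (median 0.13, with 0.19 and 0.12), with C1qb, a complement subunit, at 9.06 and 9.03 against 9.36 and 9.43, and Cd68, a lysosomal protein of phagocytes, at 6.99 and 7.05 against 7.21 and 7.48. The groups were separated upwards by 9 of the 14 precursor genes and 12 of the 20 microglial genes, beside 22.8% of all genes. Downwards it was 1 gene in each list, beside 15.2% of all genes. Both CPEB4 KO animals were above both CPEB4 GT/+ animals for each of the 4 genes named. These directions did not hold on all arrays of the same animals: in WASH C1ql1 differed by -0.15 and Cd68 by -0.034, and C1qb differed by -0.22 for the mean of WASH and ELUTED. On the lower side in INPUT were Rlbp1 and Tnr among the precursor genes, where the lowest difference was -0.17. Among the microglial genes Cx3cr1 and Trem2 were lower, and the lowest difference was -0.056. The precursor median was 0.12 in WASH with 10 of 14 above 0 and -0.038 in ELUTED with 6. On the ELUTED arrays the microglial median was -0.19 with 4 of 20 above 0, and in WASH it was 0.05 with 13.

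Endothelial and mural genes were above 0 for 20 of 26 (median 0.11, with 0.12 and 0.11 in the single animals). Acta2, named above, was on the higher side, and Apold1 and Flt1 were on the lower side. Vtn, vitronectin, made by pericytes and by liver, read 9.12 and 9.32 in CPEB4 GT/+ and 10.87 and 9.69 in CPEB4 KO, so that CPEB4 KO replicate 2 was 0.46 above the CPEB4 GT/+ mean and replicate 1 was 1.65 above it. In WASH Vtn differed by 0.13. Over the list the median was 0.13 in WASH with 18 of 26 above 0, and -0.071 in ELUTED with 7.

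Genes of ependyma, choroid plexus and meninges, the linings of the brain, were above 0 for 15 of 17 (median 0.24, with 0.19 and 0.33 in the single animals). Ttr, transthyretin of the choroid plexus and of liver, varied most between animals, at 7.84 and 11.48 in CPEB4 GT/+, 11.40 and 11.82 in CPEB4 KO and 11.24 and 8.93 in WT. The 2 CPEB4 GT/+ animals and the 2 WT animals each differed widely in it, and the groups overlapped. Slc6a13, a transporter of meningeal cells and of liver, read 7.28 and 7.45 against 8.51 and 7.80, and Col1a1, a fibrillar collagen chain, read 8.17 and 8.42 against 8.99 and 8.62. Among genes of other brain regions, Pmch, the melanin-concentrating hormone precursor of the hypothalamus, was high in WT replicate 1 (9.23) and CPEB4 KO replicate 1 (8.31) and between 5.16 and 5.36 on the other 4 INPUT arrays. How much tissue beyond cortex and striatum each sample held was not measured, and its part in these lists was not tested.

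**Figure D5:**
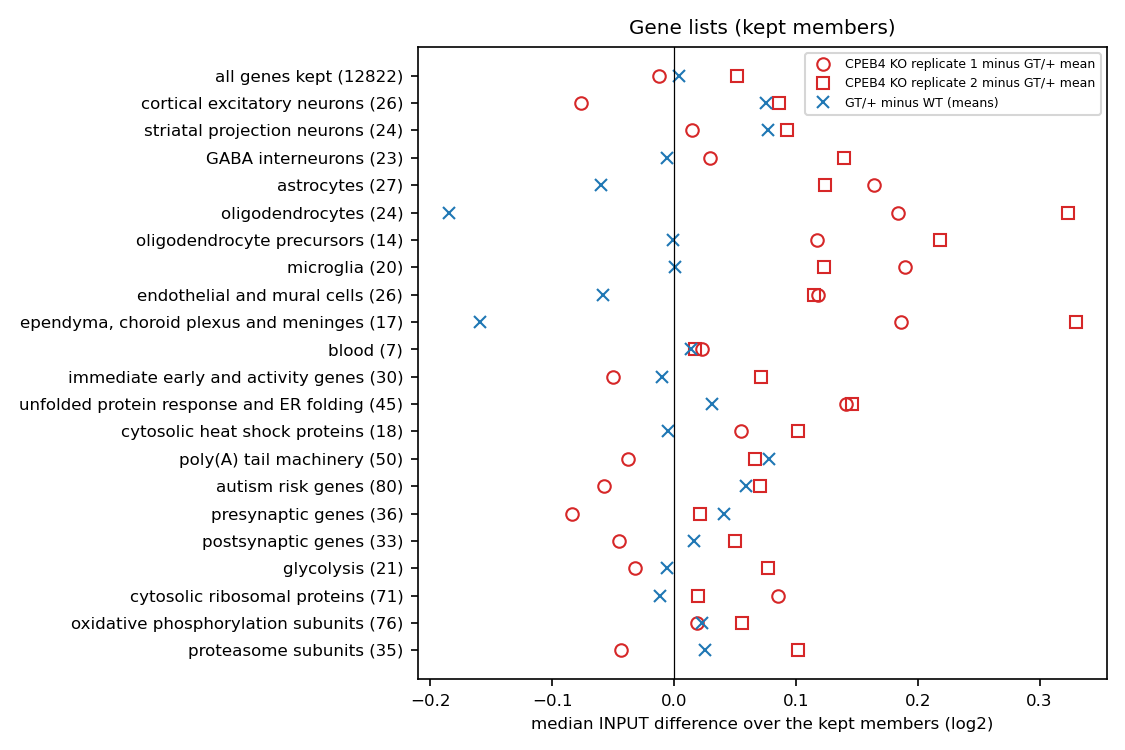
Median INPUT difference (log2) over the tested members of each gene list, with the number of members in brackets; red circles are CPEB4 KO replicate 1 and red squares replicate 2, both minus the CPEB4 GT/+ mean, and blue crosses are CPEB4 GT/+ minus WT. Oligodendrocyte genes lie at 0.18 and 0.32 for the CPEB4 KO animals and at -0.18 for CPEB4 GT/+ against WT, while presynaptic and cortical excitatory genes lie near 0.

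Most neuronal and synaptic lists had INPUT medians near that of all genes, though only 30.6% of presynaptic genes were above 0, beside 56.2% of all genes. Medians were -0.04 for cortical excitatory neurons (12 of 26 above 0), 0.03 for striatal projection neurons (15 of 24), -0.02 for presynaptic genes (11 of 36) and 0.01 for postsynaptic genes (18 of 33). The sign of such small medians depended on the animal for 3 of these lists. In CPEB4 KO replicate 1 and replicate 2 they were -0.076 and 0.086 for cortical excitatory genes, 0.015 and 0.093 for striatal genes, -0.084 and 0.021 for presynaptic genes and -0.045 and 0.050 for postsynaptic genes. GABA interneuron genes lay higher, with a median of 0.08 (0.029 and 0.14 in the single animals) and 18 of 23 above 0. Of these 23, 10 separated the groups upwards (43.5%, beside 22.8% of all genes), 2 were higher at an unadjusted p under 0.05, and the median in WASH was 0.017. Of 80 autism risk genes 41 were above 0 (median 0.00), with 3 higher and 0 lower at an unadjusted p under 0.05, beside 5.97% and 2.17% of all genes, and medians of -0.058 and 0.071 in the single animals. The poly(A) tail machinery, 50 genes that lengthen, shorten or bind tails, had 29 above 0 (median 0.02, with -0.038 and 0.066), with 1 higher and 0 lower. Cortical excitatory genes were above 0 for 3 of 26 in WASH and 7 in ELUTED, with a median of -0.087 in both. Striatal genes had 11 of 24 and 9 above 0, presynaptic genes 17 of 36 and 12, and postsynaptic genes 15 of 33 and 11. Of all 12822 genes, 6801 were above 0 in WASH and 6133 in ELUTED.

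Housekeeping lists had INPUT medians of 0.02 to 0.06. The median was 0.06 for 71 cytosolic ribosomal proteins (0.085 and 0.020 in the single animals), 0.03 for 76 subunits of oxidative phosphorylation (0.019 and 0.056), 0.03 for 35 proteasome subunits (-0.044 and 0.10) and 0.02 for 21 glycolysis genes (-0.032 and 0.077). In ELUTED the ribosomal median was -0.41, with 4 of 71 above 0, and that of oxidative phosphorylation -0.40, with 11 of 76. For the mean of WASH and ELUTED minus INPUT, 21 of the 71 and 31 of the 76 were lower at an unadjusted p under 0.05, beside 7.12% of all genes. All 8 replication-dependent histone genes tested were above 0 (median 0.14, with 0.20 and 0.14 in the single animals), with 0 at an unadjusted p under 0.05.

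The unfolded protein response is the programme by which a cell with misfolded protein in the ER makes more chaperones and degradation factors. Of 45 genes of this response and of ER folding, 37 were higher in CPEB4 KO, with a median of 0.16. The groups were separated upwards by 23 and downwards by 4, beside 22.8% and 15.2% of all genes. At an unadjusted p under 0.05, 11 were higher and 1 lower, beside 5.97% and 2.17% of all genes. The single animals gave medians of 0.14 (35 above 0) in CPEB4 KO replicate 1 and 0.15 (37 above 0) in replicate 2, beside medians of all genes of -0.013 and 0.052 in these animals. Relative to WT the CPEB4 KO median was 0.16 and the CPEB4 GT/+ median 0.03, so here CPEB4 GT/+ lay beside WT.

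Xbp1, a transcription factor of the response, read 8.54 and 8.63 in CPEB4 GT/+ and 8.93 and 8.95 in CPEB4 KO, with 8.27 and 8.35 in WT (difference 0.36 ± 0.09, SE; limma, adjusted p = 0.469). Its 3 other probe sets gave 0.27, 0.44 and 0.34, all without overlap. Manf, a secreted ER protein, read 10.08 and 10.14 against 10.39 and 10.49. Both genes were higher in both CPEB4 KO animals by like amounts. Derl2, a channel component for degradation from the ER, differed by 0.64, but by 0.91 in CPEB4 KO replicate 1 and 0.37 in replicate 2, and its second probe set gave 0.10. On the lower side, Chac1, a glutathione-degrading enzyme at the end of the ATF4 arm, read 7.03 and 6.93 against 6.82 and 6.53 (difference -0.30 ± 0.13, SE), and was lower still in WASH (-0.79) and ELUTED (-0.92).

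The higher median of this list did not carry over to ELUTED: it was 0.08 in WASH with 33 of 45 above 0, and -0.06 in ELUTED with 19. For the mean of WASH and ELUTED minus INPUT, 1 of the 45 genes was higher and 11 lower at an unadjusted p under 0.05, beside 2.73% and 7.12% of all genes. As given above, 21 of 71 ribosomal and 31 of 76 oxidative phosphorylation genes were lower in the same test.

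Many genes of this response share an ER stress element, a promoter motif spelled CCAAT and CCACG with 9 bases of any kind between them, which is read by ATF6 together with NF-Y. The sequences of the 4 holders with the largest differences are shown, so that the element can be seen in its promoter, from the RefSeq windows on GRCm38.p6, which run from 250 bases before to 50 after each gene start. Each is written 5' to 3' on the strand of the gene, with the element in capitals. In Creld2 and Calr the element lies on the opposite strand and so reads CGTGG, 9 bases, ATTGG. Dnajc3 and Hspa5 hold it on the strand of the gene.

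Creld2, chr15:88819500-88819558, plus strand: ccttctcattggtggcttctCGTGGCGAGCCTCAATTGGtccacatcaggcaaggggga
Calr, chr8:84847055-84847113, minus strand: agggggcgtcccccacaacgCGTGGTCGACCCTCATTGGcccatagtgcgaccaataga
Dnajc3, chr14:118937807-118937865, plus strand: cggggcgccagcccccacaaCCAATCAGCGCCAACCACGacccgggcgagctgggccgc
Hspa5, chr2:34772005-34772063, plus strand: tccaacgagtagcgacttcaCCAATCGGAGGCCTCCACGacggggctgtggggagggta

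The element was found on either strand in 9 of 40 listed genes with a window (22.5%) and in 37 of 27025 genes with a window of 300 bases (0.137%). Since many genes of this response are known to share the element, nothing is read from the gap between these shares. A match is a string of letters and not a measured binding site. In the whole list 37 of 45 genes were above 0, with a median of 0.16, and 23 separated the groups upwards, beside 22.8% of all genes. The 9 holders were all tested and all above 0 in CPEB4 KO, from 0.01 to 0.34 with a median of 0.22. Of these 9 holders, 4 separated the groups upwards. In CPEB4 KO replicate 2 alone they ran from -0.0066 for Derl3 to 0.32 for Hspa5. Creld2, an ER-resident disulfide isomerase, read 9.83 and 9.80 in CPEB4 GT/+ and 10.27 and 10.03 in CPEB4 KO. Calr, the chaperone calreticulin, read 10.50 and 10.74 against 11.04 and 10.85, and Dnajc3, a co-chaperone that restrains the kinase PERK, read 8.47 and 8.26 against 8.70 and 8.61. These 3 genes separated the groups with differences of 0.34 ± 0.12, 0.32 ± 0.12 and 0.29 ± 0.11 (SE). Their differences were larger in CPEB4 KO replicate 1, the array with hepatocyte transcripts (0.46, 0.42 and 0.33), than in replicate 2 (0.22, 0.23 and 0.24). Hspa5, the master chaperone BiP, read 8.82 and 9.14 against 9.12 and 9.30, and its groups overlapped (difference 0.23 ± 0.15, SE).

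Immediate early genes, which neurons and vessels switch on within minutes of stimulation, had no common direction. Of 30 genes 18 were above 0 (median 0.05), with 2 higher and 3 lower at an unadjusted p under 0.05, beside 5.97% and 2.17% of all genes. The median was -0.050 in CPEB4 KO replicate 1 and 0.071 in replicate 2. The 3 lower ones were Apold1, Ccn1 and Klf4. Klf4, a transcription factor, read 6.97 and 7.25 in CPEB4 GT/+ and 6.66 and 6.72 in CPEB4 KO (difference -0.42 ± 0.12, SE; limma, adjusted p = 0.469), and was lower in WASH (-0.77) and ELUTED (-0.75) as well. Arc, a neuronal activity gene at dendrites, was on the other side, at 10.26 and 10.38 against 10.56 and 10.63 (difference 0.28 ± 0.10, SE). The groups did not overlap for any of these 4 genes. Over the list 9 of 30 separated the groups upwards and 5 downwards, beside 22.8% and 15.2% of all genes.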

How the data were processed

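Per the submitters' processing notes, the authors made the deposited log2 values with RMA, with no version given, from biotin-labelled, amplified cDNA. The series text calls the arrays PrimeView, while the probe set names have a PM mark that belongs to a different design; they were matched to genes through GEO's platform annotation. Of 45141 probe sets, 28898 had 1 symbol; 551 with several and 15692 unnamed ones were left out. Each of 17097 genes was represented by the probe set brightest on average over 18 arrays, and the lowest 25% were dropped. Genotype means were fitted with limma 3.58.1 in R 4.3.3 (lmFit, eBayes, two-sided) over the 6 INPUT arrays, with 3 residual degrees of freedom. The comparisons with WT share animals with the main one. WASH, ELUTED and the within-animal difference were fitted likewise. The fit was tested on simulated data with independent normal noise and no array that stood apart. There 17 unchanged genes were called, beside 200 genes given a difference. Such data check the code and not how many differences the real arrays could show. The number of arrays limits the precision, and RMA hides differences in total RNA. The members and lists were chosen with earlier results of these data known. Genes named were drawn from the CPEB family, up to 12 per direction, and per list up to 2 per direction by p and up to 2 by level. Genes named in an earlier look at INPUT against WT, such as Mog, Agt, Vtn, Derl2, Pmch and Ttr, were added. Not every gene so drawn is described. Trf, Klf4, Dsp and the element-holding genes were named after their values were seen.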

Additional observations from a re-analysis of the deposited data

Results flagged for a closer look

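Genes outside the tested set also carried the signal of the INPUT array of CPEB4 KO replicate 1. Mup3, a major urinary protein, read 11.65 there against 3.96 to 4.14 on the other INPUT arrays. Serpina1a read 11.28 against 3.86 to 3.93, and Serpina1b read 11.72 against 4.94 to 5.07, both members of the alpha-1-antitrypsin family, whose near-identical copies can share signal. These 3 genes fell below the intensity filter and were not among the 12822 genes tested, though they are members of the hepatocyte list. They were at the level of the dimmest genes on the WT arrays, where they read 3.96 to 4.03, 3.86 to 3.93 and 4.94 to 5.04. The source of the signal was not tested.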

How the results depend on the processing

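Against 0 calls for CPEB4 KO minus CPEB4 GT/+, limma called 3 genes with the lowest 50% left out, 1 with the mean of a gene's probe sets, 78 with arrays aligned on the hybridisation controls, 5 with a trend and robust eBayes, 4 with the mean of the 3 fractions, 2 with 18 arrays and the animal as a random block, and 1 with every probe set on its own. After the data had been seen, 2 more were added: WASH in place of INPUT gave 3 and the mean of WASH and ELUTED gave 5. Leaving out 1 animal gave 0 to 272. The unadjusted count of 1043 became 2178 with aligned arrays, 2154 with every probe set, and 619 to 1339 with 1 animal left out. The share that was higher, 73.3%, became 82.4% with the lowest 50% left out, 53% with the mean of the 3 fractions, 49.8% in WASH and 32.7% with the mean of WASH and ELUTED. For WASH and ELUTED minus INPUT, the 0 calls became 40 with aligned arrays, 1 with the replicate block and 0 to 217 with 1 animal left out. The cause of these shifts was not tested.

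Pisd-ps3 and Apold1 were called with the lowest 50% left out (limma, adjusted p = 0.0295 for both), with a trend (0.0014 and 0.0143), with the 3 fractions averaged (0.0035 for both) and with the random block (0.0017 and 0.0126). Settings that change only the filter, the estimate of the spread or the WT animals leave a difference as it is and cannot change its sign. Leaving out 1 animal cannot do so either for genes chosen without overlap, such as the 24 named by rule. Much of the agreement in sign was therefore fixed in advance. Of 54 genes, 44 never changed sign over 1017 values, and 18 values did. With the mean of WASH and ELUTED these were Gstm7 (-0.022), Cpeb1 (-0.025), Aldh1l1 (-0.024), C1ql1 (-0.0049), C1qb (-0.22), Cd68 (-0.0013), Vtn (-0.057), Xbp1 (-0.16) and Calr (-0.10). In WASH they were C1ql1 (-0.15) and Cd68 (-0.034), and with the 3 fractions averaged Cpeb1 (-0.011) and C1qb (-0.028). A second quantile normalization gave Cpeb3 -0.041 and Cpeb1 -0.017. With 1 animal left out Cpeb3 ran from -0.025 to 0.074 and Cpeb1 from -0.076 to 0.11.

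Whether replicate numbers pair the animals is not known. Deviations of CPEB4 KO replicate 1 and CPEB4 GT/+ replicate 1 correlated at -0.04 across genes. This cannot decide it, since the hepatocyte transcripts of 1 INPUT array enter the CPEB4 KO deviations. With the replicate block 0 genes were called and 901 had an unadjusted p under 0.05.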
